A study of Mus musculus with 14 samples.

Results

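The genes described here are 44 known targets of the transcription factor MYC that make ribosomes, nucleotides and polyamines. They were given as a list of names, and a gene with several probe sets was read through the brightest, ranked by its mean over 14 arrays. Of the 44 genes, 41 were measured, among 12393 genes on the array with a probe set of their own. Dkc1 and Impdh2 had no probe set paired with them in the annotation used here, and Sms had only 3 probe sets that are each paired with several genes. The 41 measured genes fall into 25 genes of ribosome biogenesis and 16 genes of nucleotide, folate and polyamine metabolism.

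RNA came from primitive erythroid precursors, which make the earliest red cells of an embryo, laser-captured from 8 µm sections of mouse yolk sac at embryonic day 9.5. There were 3 KLF1-/- samples, 3 samples labelled KLF1-/- KLF2-/- and 8 wild-type samples, all labelled strain FVB/N. KLF1 and KLF2 belong to the Krüppel-like factors, which bind DNA through zinc fingers, and the mutant embryos came from heterozygous (KLF1+/- or KLF1+/- KLF2+/-) mothers. Each sample pooled 2 to 4 yolk sacs from 2 litters, and 10 to 20 ng of RNA was amplified in a 2-cycle reaction. The sources used here do not say which litters gave the wild-type samples.

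MYC binds DNA as a dimer with MAX, most strongly at the E-box CACGTG, and its best known targets make ribosomes and the building blocks of RNA and DNA. Ribosomes are assembled in the nucleolus, where RNA polymerase I copies the ribosomal RNA genes, small nucleolar ribonucleoproteins (snoRNPs) modify the transcript, and separate sets of factors build the small and the large subunit. Erythroid precursors make ribosomes at a high rate because they must translate globin in bulk before the nucleolus shuts down.

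The E-box is shown first because it is the sequence through which MYC is best known to act. RefSeq windows of assembly GRCm38.p6, running from 250 bases before to 50 bases after the annotated start, were available for 38 of the 44 genes. CACGTG, which reads the same on both strands, was in the window of 9 of these 38 genes (23.7%), against 8.09% of all 27025 genes with a window. The 9 include Sms and Impdh2, which were not measured. Of the measured genes on the list, 7 had the E-box and 28 had a window without it. Of all 9887 measured genes with a window, 10.8% had it. The sites of the 7 measured genes follow with up to 10 bases on each side, 5′ to 3′ on the gene's strand, with the E-box in capitals. Nme1 has 2 windows with a site in each, and the site nearer to its annotated start is shown.
Wdr43, chr17:71616222-71616247, plus strand: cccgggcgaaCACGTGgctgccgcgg
Utp20, chr10:88826765-88826787, minus strand: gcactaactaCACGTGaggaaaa
Mybbp1a, chr11:72441357-72441376, plus strand: cttctgagccCACGTGtttg
Nme1, chr11:93968275-93968300, minus strand: tgcggggaacCACGTGaggccgggga
Paics, chr5:76951089-76951114, plus strand: cctcggaaagCACGTGgagggacctg
Pes1, chr11:3963967-3963992, plus strand: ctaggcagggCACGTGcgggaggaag
Nop2, chr6:125131813-125131838, plus strand: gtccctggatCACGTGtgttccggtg
The sites of Wdr43, Utp20, Mybbp1a and Pes1 lie after the annotated start, at positions 18, 38, 41 and 3, and those of Nme1, Nop2 and Paics lie before it, at positions -18, -60 and -203.

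The upstream sequences of 4 of the genes named in the results are given next, each covering the 250 bases before the start. Capitals mark CCNCNCCC, or GGGNGNGG on the other strand, a CACCC-type motif of the kind that Krüppel-like factors bind.
Ddx21, chr10:62602299-62602548, minus strand: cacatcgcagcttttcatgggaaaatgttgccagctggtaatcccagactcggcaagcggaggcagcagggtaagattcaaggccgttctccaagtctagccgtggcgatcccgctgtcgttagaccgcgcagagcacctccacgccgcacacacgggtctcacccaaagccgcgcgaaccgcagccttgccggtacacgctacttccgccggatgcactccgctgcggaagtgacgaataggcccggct
Wdr43, chr17:71615965-71616214, plus strand: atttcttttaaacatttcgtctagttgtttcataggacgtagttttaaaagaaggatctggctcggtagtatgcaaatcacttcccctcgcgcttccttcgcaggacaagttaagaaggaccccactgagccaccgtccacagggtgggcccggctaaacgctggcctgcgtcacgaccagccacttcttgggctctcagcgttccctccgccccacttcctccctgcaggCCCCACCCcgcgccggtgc
Nop56, chr2:130274162-130274411, plus strand: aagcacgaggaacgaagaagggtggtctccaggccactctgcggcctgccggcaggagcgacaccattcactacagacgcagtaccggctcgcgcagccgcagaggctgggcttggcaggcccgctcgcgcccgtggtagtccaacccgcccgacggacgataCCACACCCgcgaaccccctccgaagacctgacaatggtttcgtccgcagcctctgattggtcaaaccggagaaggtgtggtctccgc
Mthfd2, chr6:83317605-83317854, minus strand: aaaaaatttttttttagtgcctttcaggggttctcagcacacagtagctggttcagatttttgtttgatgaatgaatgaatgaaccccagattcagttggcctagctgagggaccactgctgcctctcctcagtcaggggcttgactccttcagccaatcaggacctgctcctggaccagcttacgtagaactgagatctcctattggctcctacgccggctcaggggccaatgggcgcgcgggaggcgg
Wdr43 and Nop56 each hold 1 such motif in this stretch, and Ddx21 and Mthfd2 hold 0. Gnl3, whose stretch is not shown, holds 4. Over the whole windows CCNCNCCC was in 29 of 38 genes (76.3%), against 51.9% of all genes. Among all measured genes with a window the share was 69.3%, but the 29 include Dkc1, Impdh2 and Sms, which were not measured. These are matches of letters within a window, and binding was not measured. Ppat and Paics, which encode enzymes of purine synthesis, start 276 bp apart on opposite strands.

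Values are deposited log2 expression values, so 1 unit is a doubling. The labels were checked against their own genes. Klf1 averaged 9.45 ± 0.39 in KLF1-/- (SD, n = 3), 9.15 ± 0.53 in the arrays labelled KLF1-/- KLF2-/- (n = 3) and 10.67 ± 0.63 in wild type (n = 8), and every mutant array lay below every wild-type array. Klf2 averaged 6.22 ± 0.28 in KLF1-/-, 6.69 ± 0.32 in the arrays labelled KLF1-/- KLF2-/- and 6.25 ± 0.25 in wild type, so it was not lower in the arrays that carry its name in their label. The sources used here do not say whether the Klf1 and Klf2 probe sets lie in the deleted parts. Erythroid markers were bright, with embryonic globin Hbb-y at a mean of 14.4, but visceral endoderm markers such as Ttr were bright as well, at 13.8, on arrays of captured erythroid cells. The sample titles are numbered in 2 runs: 1 to 8 hold the KLF1-/- and 4 wild-type arrays, and 9 to 15 hold the arrays labelled KLF1-/- KLF2-/- and 4 wild-type arrays. The labels do not say whether these runs are batches.

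The 41 genes were mostly well expressed. Their means over 14 arrays ran from 6.56 to 13.2, and 39 of 41 lay in the upper part of all genes, above the middle of the ranking by mean. Their spread over arrays was also wider than usual, with a median SD of 0.34 against 0.26 over all genes. Prps2, an enzyme that makes phosphoribosyl pyrophosphate for nucleotides, varied least, with an SD of 0.14. Ppat, which catalyses the committed step of purine synthesis, varied most, with an SD of 0.92. Ncl (nucleolin) and Nop58, a core snoRNP protein, followed with SDs of 0.88 and 0.83.

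In the box C/D snoRNP, the methyltransferase Fbl (fibrillarin) averaged 10.32 ± 0.53 in KLF1-/-, 10.21 ± 0.24 in the arrays labelled KLF1-/- KLF2-/- and 10.23 ± 0.59 in wild type (SD, n = 3, 3 and 8). Nop58, which pairs with Nop56 in the same particle, averaged 8.14 ± 0.89 in KLF1-/-, 7.92 ± 0.88 in the arrays labelled KLF1-/- KLF2-/- and 8.03 ± 0.90 in wild type. The SD of Nop58 was wide within each genotype, and the group means lay within it. Of the polymerase subunits, Polr1b averaged 7.68 ± 0.49 in KLF1-/-, 7.57 ± 0.52 in the arrays labelled KLF1-/- KLF2-/- and 7.53 ± 0.44 in wild type.

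The nucleoside diphosphate kinases Nme1 and Nme2 balance the nucleoside triphosphates. Their genes lie on the same strand, with 12242 bp between an annotated start of each. Nme1 averaged 12.57 ± 0.23 in KLF1-/-, 12.58 ± 0.21 in the arrays labelled KLF1-/- KLF2-/- and 12.70 ± 0.17 in wild type. Nme2 averaged 13.19 ± 0.26 in KLF1-/-, 13.21 ± 0.15 in the arrays labelled KLF1-/- KLF2-/- and 13.12 ± 0.27 in wild type. Prps1, the paralog of Prps2, averaged 8.55 ± 0.47 in KLF1-/-, 8.23 ± 0.63 in the arrays labelled KLF1-/- KLF2-/- and 8.40 ± 0.40 in wild type. Shmt2, the mitochondrial partner of Shmt1, averaged 8.99 ± 0.54 in KLF1-/-, 8.51 ± 0.59 in the arrays labelled KLF1-/- KLF2-/- and 8.69 ± 0.69 in wild type. Mthfd1, the cytosolic partner of Mthfd2, averaged 10.05 ± 0.31 in KLF1-/-, 9.84 ± 0.24 in the arrays labelled KLF1-/- KLF2-/- and 10.14 ± 0.34 in wild type, so the mean order of genotypes seen for Mthfd2 was not that of Mthfd1.

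The number of these genes that were high differed widely between arrays of 1 genotype. On wild-type replicate 9, 37 of 41 genes lay above their own 14-array mean, and on wild-type replicate 12 only 3 did. Among KLF1-/- arrays the count was 10, 34 and 16 for replicates 5, 6 and 8. Among the arrays labelled KLF1-/- KLF2-/- it was 14, 28 and 5 for replicates 13, 14 and 15. In wild type it ran from 3 to 37, a range that takes in all 6 mutant arrays. Over all genes the share above their own mean stayed between 42.1% and 55.4% on every array.

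The arrays with many genes above their mean tended to be those with the most spread-out values. The interquartile range of an array ran from 2.31 on wild-type replicate 12 to 3.12 on KLF1-/- replicate 6. These are deposited values, and normalization between arrays did not give them the same distribution. The limma results below were also computed with the array spread in the model, and those values stand beside each comparison. Array spread is computed from the same values as the genes, so this is a description and not a test of its part. For Myc it was added to the limma slope only, and not to r or rho.

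**Figure D1:**
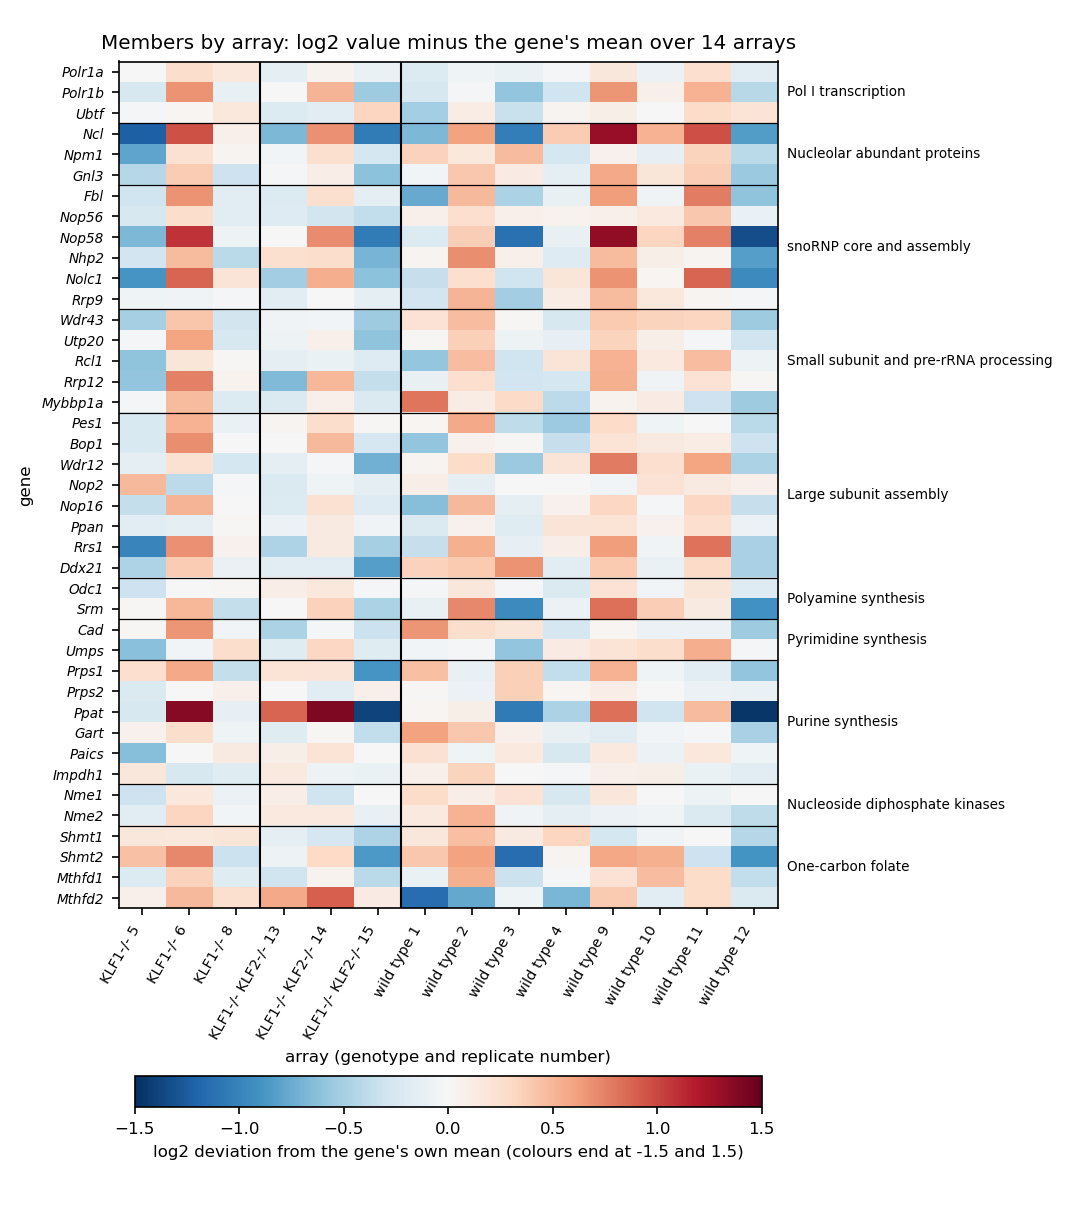
Heat map of the 41 genes (rows, grouped by role) on the 14 arrays (columns, grouped by genotype), coloured by log2 value minus the gene's own mean over 14 arrays. Some columns are mostly of 1 colour: 34 of 41 genes lay above their mean on KLF1-/- replicate 6, 28 on KLF1-/- KLF2-/- replicate 14 and 37 on wild-type replicate 9, but 5 on KLF1-/- KLF2-/- replicate 15 and 3 on wild-type replicate 12.

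The first comparison asks what loss of KLF1 does to these genes. In KLF1-/- arrays their values were centred on those of wild type, with 21 of 41 genes higher and 20 lower. The median log2 change was 0.01, the same as over all 12393 genes (0.01). None of the 41 was called in limma at an adjusted p under 0.05, where 0.0403% of all genes were called, and 0 had an unadjusted p under 0.05, against 2.03% of all genes. For no gene did the 3 KLF1-/- arrays lie all above or all below the 8 wild-type arrays, as they did for 0.315% and 0.258% of all genes. The 95% intervals of the changes had a median width of 0.48 on each side, so a change smaller than that could not be told from 0 for a typical gene.

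By role, the 3 genes of RNA polymerase I transcription were all a little higher in KLF1-/- arrays, with changes between 0.07 and 0.17. The 3 abundant nucleolar proteins were all lower, between -0.24 and -0.22. These are values of the brightest probe sets, and the other probe sets of Ncl gave -0.11, 0.03 and 0.70. Polr1a, the largest subunit of the polymerase, had 7.90, 8.17 and 8.05 in KLF1-/- arrays, against a lowest, median and highest of 7.70, 7.82 and 8.15 in wild type. The groups overlapped, and the log2 change was 0.17 (SE 0.116, limma adjusted p = 0.9998). Npm1 (nucleophosmin), a nucleolar chaperone, had a change of -0.24 (SE 0.226). Its sign turned without KLF1-/- replicate 5, to 0.07. Nop56, a core protein of the box C/D snoRNPs, had a change of -0.17 (SE 0.127). Bop1, which with Pes1 and Wdr12 forms a complex needed for the large subunit, had a change of 0.25 (SE 0.220), and Ppan, another large subunit factor, one of -0.14 (SE 0.122).

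Among the metabolic genes, those with the largest differences were the folate enzyme Mthfd2 and the purine enzyme Ppat. Mthfd2, a mitochondrial enzyme that supplies carbon units for purine synthesis, had 10.31, 10.72 and 10.47 in KLF1-/- arrays, against 9.09, 10.04 and 10.62 (lowest, median and highest) in wild type. The change was 0.57 (SE 0.285, adjusted p = 0.9998), and it was 0.94 (SE 0.252) when KLF1-/- arrays were set only against wild-type arrays 1 to 4. Ppat had 8.54, 10.15 and 8.65 in KLF1-/- arrays, against 7.33, 8.65 and 9.60 in wild type, a change of 0.57 (SE 0.570) that was 0.05 without KLF1-/- replicate 6 and -0.16 on its other probe set. Paics, which follows later in the same pathway, had a change of -0.20 (SE 0.153). Of 39 other probe sets of the 41 genes, 24 shared the sign of the one used. The other probe sets of Npm1 and Nop56 gave 0.18 and 0.07, and those of Polr1a gave 0.08 and -0.27. The mean of 8 megakaryocyte markers was 7.32, 7.44 and 7.45 in the KLF1-/- arrays, against 6.90 to 7.29 in wild type. Of these markers, Gp1bb was lower in KLF1-/- (group means 6.68 against 6.90). The part of these markers in the values above was not tested.

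With the interquartile range of each array in the model, the median change of the 41 genes was -0.13, and 30 were below 0, again with 0 called. The unadjusted p was then under 0.05 for 3 genes, against 4.76% of all genes: Wdr43 (-0.38), Gnl3 (-0.37) and Nop56 (-0.22), all lower in KLF1-/-. Without KLF1-/- replicate 6 and wild-type replicate 12, the arrays of widest and narrowest spread, it was -0.22, with 36 below 0, a repeat that was added after the data were seen.

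**Figure D2:**
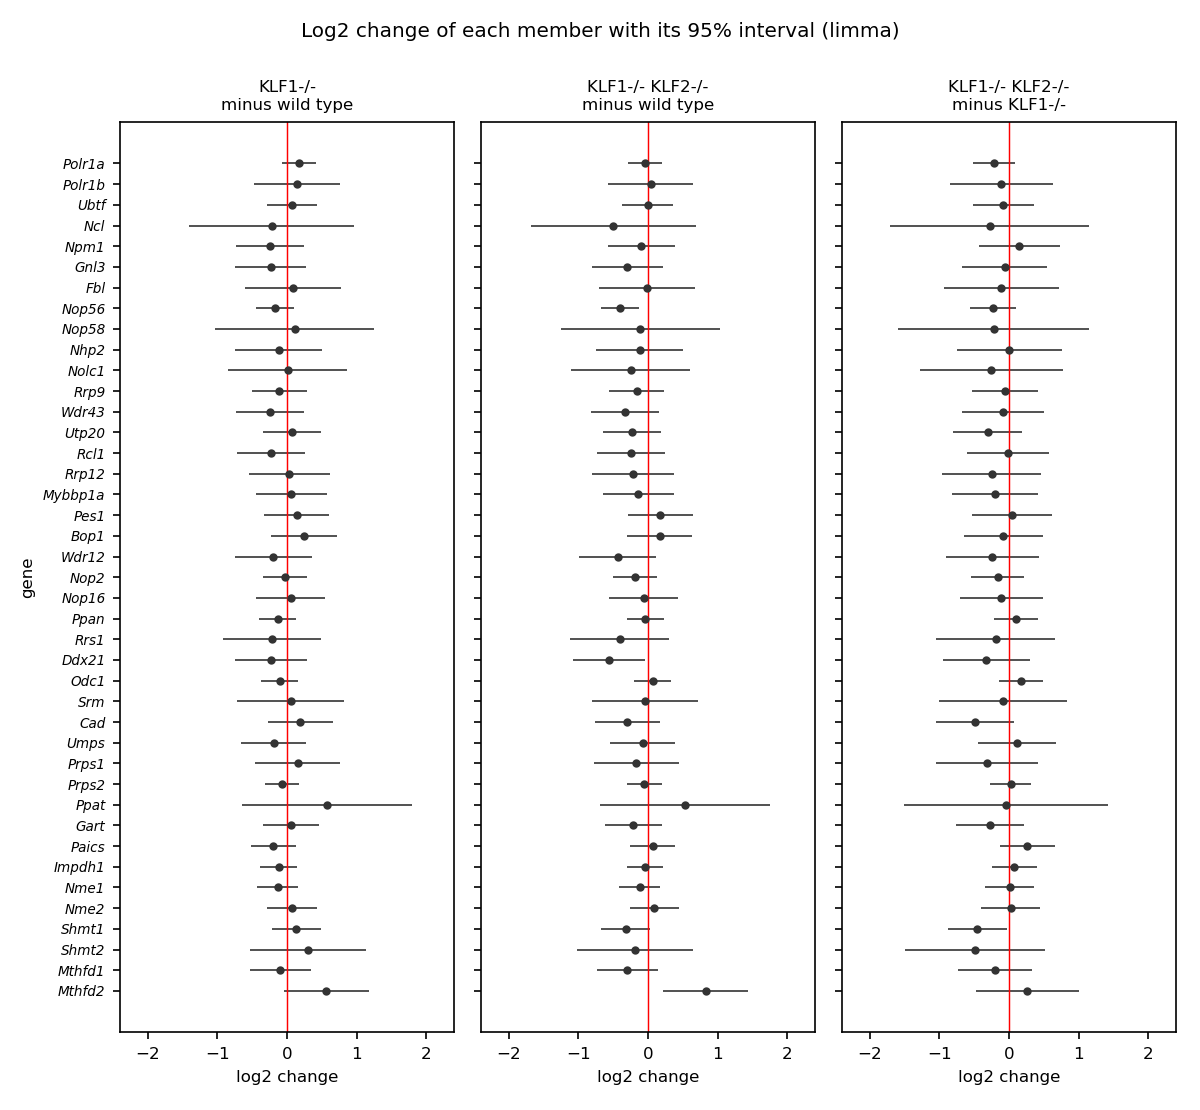
Log2 change of each of the 41 genes with its 95% interval from limma, in 3 panels: KLF1-/- against wild type on the left, KLF1-/- KLF2-/- against wild type in the middle, and KLF1-/- KLF2-/- against KLF1-/- on the right. Most intervals cross 0, Mthfd2 (0.83), Nop56 (-0.40) and Ddx21 (-0.56) in the middle panel and Shmt1 (-0.45) in the right panel being those that do not.

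The second comparison asks what the combined loss does. In the arrays labelled KLF1-/- KLF2-/-, 33 of 41 genes were below wild type, against 47.9% of all genes, with a median change of -0.12 against 0.01 over all genes. Of the ribosome biogenesis genes 22 of 25 were below 0, with a median of -0.16, against 11 of 16 metabolic genes, with a median of -0.06. All 6 snoRNP genes, all 5 genes of small subunit processing and all 3 abundant nucleolar proteins were below 0 on the probe sets used. Of 39 other probe sets of the 41 genes, 29 shared the sign of the one used, and those of Ncl gave -0.43, -0.08 and 0.15. None of the 41 was called in limma, where 0.0646% of all genes were called (0.0161% higher and 0.0484% lower), and 3 had an unadjusted p under 0.05 (Nop56, Ddx21 and Mthfd2), against 2.32% of all genes. These counts share the wild-type arrays with the first comparison.

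Nop56 had 9.37, 9.29 and 9.20 in the arrays labelled KLF1-/- KLF2-/-, against 9.47, 9.64 and 9.96 (lowest, median and highest) in wild type. It was the only gene of the 41 with all 3 of these arrays below all 8 wild-type arrays, which held for 0.307% of all genes. The change was -0.40 (SE 0.127, unadjusted p = 0.0068, limma adjusted p = 0.9999), a ratio of 0.758, and against wild-type arrays 9 to 12 alone it was -0.41. The gene's other probe set gave -0.08.

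Ddx21, an RNA helicase that works in ribosomal RNA transcription and processing, had 9.75, 9.76 and 9.11 in the arrays labelled KLF1-/- KLF2-/-, against 9.45, 10.25 and 10.60 in wild type. The groups overlapped at the lowest wild-type arrays, and the change was -0.56 (SE 0.242, unadjusted p = 0.0369, adjusted p = 0.9999). The second probe set of the gene gave -0.31, in the same direction. Wdr12 had 8.66, 8.79 and 8.09 in the arrays labelled KLF1-/- KLF2-/-, against 8.25, 9.04 and 9.59 in wild type, a change of -0.44 (SE 0.260). Of its partners in the complex for large subunit maturation, Pes1 had a change of 0.18 (SE 0.221), and -0.04 on its other probe set, and Bop1 one of 0.17 (SE 0.220).

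Mthfd2 was the gene with the largest positive difference. It had 10.81, 11.13 and 10.36 in the arrays labelled KLF1-/- KLF2-/-, against 9.09, 10.04 and 10.62 in wild type. Replicates 13 and 14 lay above every wild-type array, and replicate 15 lay within them. The change was 0.83 (SE 0.285, unadjusted p = 0.0111, adjusted p = 0.9999), a ratio of 1.78, and the other probe set gave 0.92. Within the second number run it was 0.46. Wild-type arrays 9 to 12 differed from arrays 1 to 4 by 0.74 (SE 0.238, adjusted p = 0.554), and between these wild-type arrays 3 of the 41 genes had an unadjusted p under 0.05, against 7.49% of all genes. As a set, 28 of the 41 genes were higher in wild-type arrays 9 to 12, with a median change of 0.10. Over all genes 5763 of 12393 were higher, with a median of -0.02. Ppat had a change of 0.53 (SE 0.570) on its brighter probe set and -0.43 on the other, so its 2 probe sets disagree in sign. Shmt1, a cytosolic folate enzyme, had a change of -0.32 (SE 0.163), which was -0.10 with the number run as a block.

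The shift of the 41 genes rested partly on 1 array. Without replicate 15 of the arrays labelled KLF1-/- KLF2-/- the median change was -0.03, with 23 below 0. With the array spread in the model the median was -0.17, with 34 below 0 and 0 called. The unadjusted p was then under 0.05 for 8 genes, against 5.73% of all genes, Nop56 having a change of -0.42 (adjusted p = 0.120). Marker lists of other cells were read beside these values. The mean of 8 megakaryocyte markers was 7.50 to 7.93 there, against 6.90 to 7.29 in wild type, and that of 9 macrophage markers 7.22 to 7.29 against 6.64 to 7.16 in wild type. Of the megakaryocyte markers, Gp1bb was level (group means 6.90 and 6.90). Of the macrophage markers, Laptm5 differed most (group means 9.47 against 8.05), and C1qa, C1qc and Cybb were a little lower there. All 8 mesenchyme markers had changes above 0, with a median of 0.38. Their mean was 10.14 to 10.53 there against 9.53 to 10.52 in wild type, so the arrays overlapped. The mean of 8 erythroid markers was 10.1 to 10.9 there, against 10.2 to 11.4 in wild type. These markers did not move together. Group means were lower there for Ermap (8.11 against 10.17) and Slc4a1 (11.37 against 12.25), and about level for Epor (8.65 against 8.67). They were higher for Alas2, Gata1, Hba-x, Hbb-y and Sptb. The part of these other cells in the result was not tested, and fewer cells of a type cannot be told apart from less RNA per cell.

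**Figure D3:**
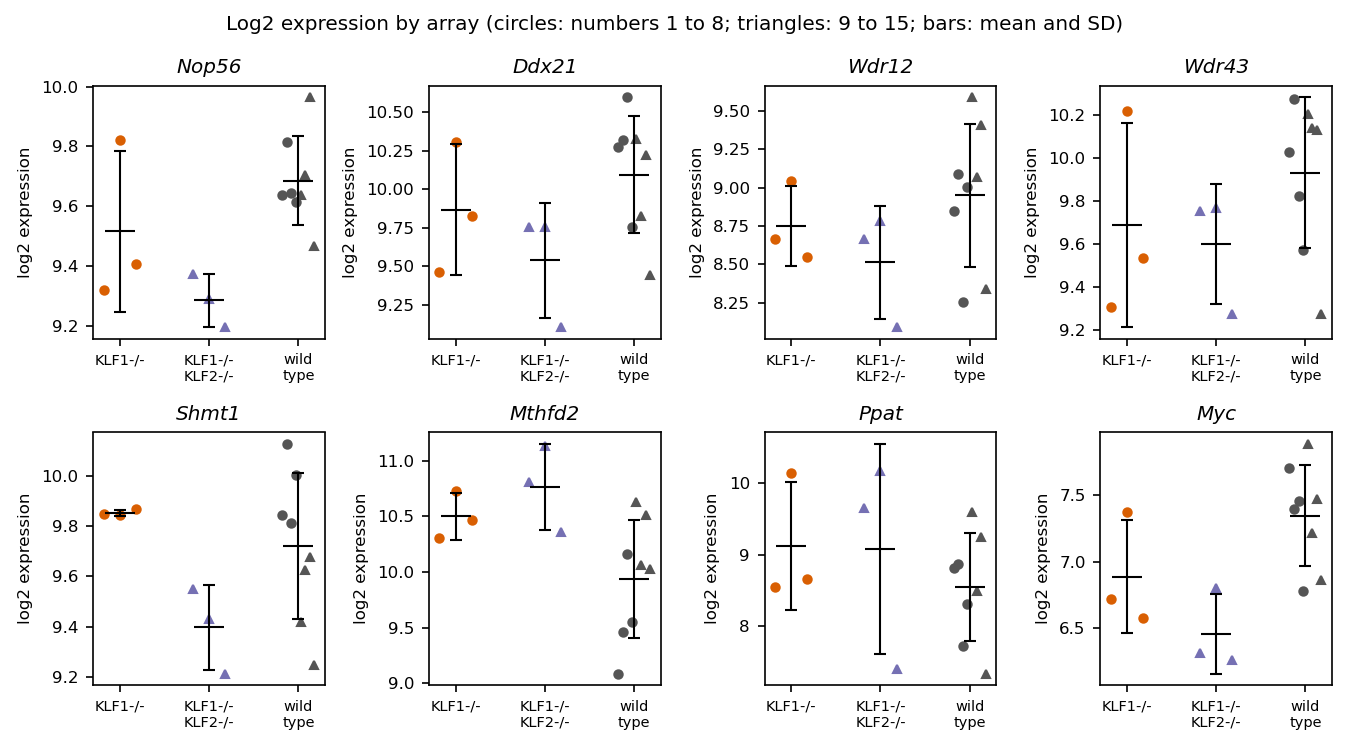
Log2 expression of 7 of the genes and of Myc on every array, with KLF1-/- on the left, KLF1-/- KLF2-/- in the middle and wild type on the right; circles are arrays numbered 1 to 8, triangles 9 to 15, and bars the mean and SD. Nop56 lies below wild type in all 3 KLF1-/- KLF2-/- arrays, and Shmt1 separates by number run, with the triangles of wild type level with those of KLF1-/- KLF2-/-.

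The third comparison sets the mutant genotypes against each other. Relative to KLF1-/-, the arrays labelled KLF1-/- KLF2-/- had 29 of 41 genes lower, against 49.9% of all genes, with a median change of -0.11 against 0.0004 over all genes. Of the ribosome biogenesis genes 21 of 25 were below 0, and of the metabolic genes 8 of 16. These counts come from the fit without the number run as a block. None of the 41 was called in limma, where 0.00807% of all genes were called, and 1 (Shmt1) had an unadjusted p under 0.05, against 0.597% of all genes.

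Shmt1 had 9.55, 9.43 and 9.21 in the arrays labelled KLF1-/- KLF2-/-, against 9.85, 9.84 and 9.87 in KLF1-/-. All 3 lay below all 3, as for 1.49% of all genes, while none of the 41 genes had all 3 above (1.76% of all genes). The change was -0.45 (SE 0.197, adjusted p = 0.9999), and the 3 other probe sets gave -0.32, -0.43 and 0.17. Wild-type arrays differed in the same way, however: arrays 9 to 12 against arrays 1 to 4 had a log2 change of -0.45 (SE 0.137, adjusted p = 0.550). With the number run as a block the change between the mutants was -0.0009. Each mutant genotype lies in 1 run, so without the wild-type arrays genotype and run cannot be told apart.

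Cad, the enzyme that starts pyrimidine synthesis, had a change of -0.49 (SE 0.263), and -0.11 with the block. Nop56 had a change of -0.23 (SE 0.153) and Polr1a one of -0.21 (SE 0.140). On the positive side stood Paics (0.26, SE 0.185), Mthfd2 (0.26, SE 0.344), Odc1, which starts polyamine synthesis (0.17, SE 0.149), and Ppan (0.10, SE 0.147). Of 39 other probe sets of the 41 genes, 27 shared the sign of the one used. The 2 others of Paics gave -0.08 and -0.07, opposite to the one used, whose name marks possible cross-hybridisation, and those of Odc1 gave 0.07 and -0.05. With the block Mthfd2 turned to -0.48 and Ppan to -0.04. With the array spread in the model the median change was -0.02, and 2 genes had an unadjusted p under 0.05 (Utp20 and Shmt1), against 2.23% of all genes. Without KLF1-/- replicate 6 the median change of the 41 genes turned to 0.13, with 16 below 0.

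The fourth question is how the 41 genes follow the signal of Myc itself. Myc had 6.72, 7.37 and 6.57 in KLF1-/- arrays, 6.32, 6.81 and 6.26 in the arrays labelled KLF1-/- KLF2-/-, and 6.78, 7.42 and 7.88 (lowest, median and highest) in wild type. The change was -0.46 (SE 0.236, adjusted p = 0.9998) in KLF1-/- and -0.88 (SE 0.236, adjusted p = 0.607) in the arrays labelled KLF1-/- KLF2-/-, so the groups differed in mean but not past the threshold. Across the 14 arrays 39 of 41 genes had a positive Pearson r with Myc, against 48.1% of all genes. Their median r was 0.39 (median rho 0.38), against -0.03 over all genes, and 0.10 over genes with a mean of at least 6. None was called at an adjusted permutation p under 0.05, and no other gene on the array was called either. The unadjusted permutation p was under 0.05 for 16 of 41, all with a positive r, against 13% of all genes (6.66% with a positive r).

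Ddx21 followed Myc most closely, with r = 0.84 and rho = 0.80 (permutation p adjusted over all genes 0.195 and 0.242). Its lowest value lay on the array with the least Myc, replicate 15 of the arrays labelled KLF1-/- KLF2-/-. Next came Wdr43, a factor of the small subunit, with r = 0.78 (rho 0.71, adjusted permutation p 0.280 and 0.343). Nop56 had r = 0.77 (rho 0.74, adjusted permutation p 0.280 and 0.315). Gnl3 (nucleostemin), a nucleolar GTPase, had r = 0.75 (rho 0.71, adjusted permutation p 0.298 and 0.350). Without the 2 arrays farthest from the median of Myc, wild-type replicate 9 and replicate 15 of the arrays labelled KLF1-/- KLF2-/-, r was between 0.59 and 0.78 for these 4 genes. For Nop56 it was 0.27 after a further quantile normalization and 0.35 within wild type, where the other 3 genes had r between 0.66 and 0.77 and between 0.73 and 0.80.

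At the other end stood Mthfd2, with r = -0.30 (rho -0.22), and Ubtf, the factor that opens ribosomal RNA genes for the polymerase, with r = -0.26 (rho -0.17), adjusted permutation p 0.558 and 0.616 for r. The other probe set gave r = -0.12 for Mthfd2 and 0.37 for Ubtf, so the sign of Ubtf depended on the probe set. Nop2, a methyltransferase of large subunit RNA, had r = 0.06 and Ppan r = 0.13. By role, the median r was highest for small subunit processing (0.59) and for the abundant nucleolar proteins (0.56), and 0.27 for polymerase I transcription. It was 0.48 over the 25 ribosome biogenesis genes and 0.34 over the 16 metabolic genes. The 7 measured genes with an E-box in the window had a median r of 0.54, between 0.06 (Nop2) and 0.78 (Wdr43), and the 28 with a window but no E-box one of 0.36, between -0.30 and 0.84, a description with no test. Ddx21, the closest follower, is among the genes without one.

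**Figure D4:**
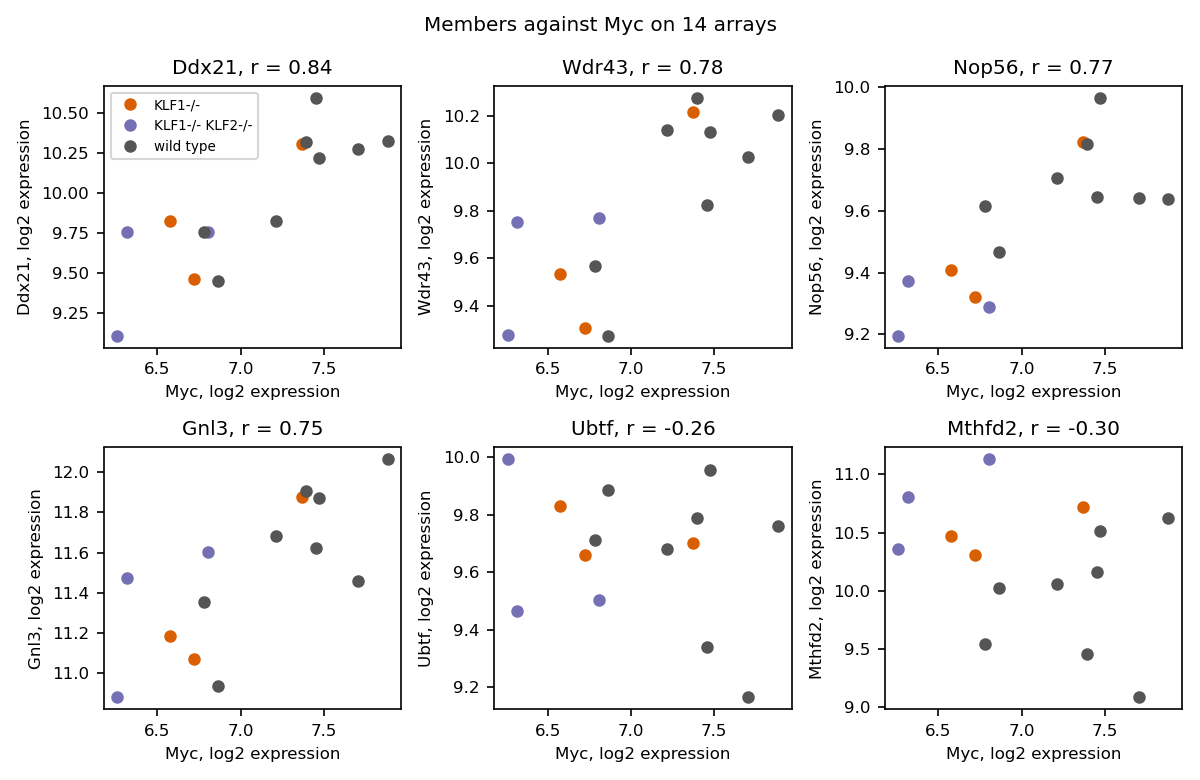
Log2 expression of 6 genes against that of Myc on the 14 arrays, coloured by genotype, with Pearson r above each panel. Ddx21, Wdr43, Nop56 and Gnl3 are high where Myc is high (r 0.75 to 0.84), and Ubtf and Mthfd2 are not (r -0.26 and -0.30). The other probe set of Ubtf, not drawn, had r = 0.37.

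The relation was also computed within each number run, where the difference between runs was not tested. The median r was 0.22 over the 7 arrays of the first run and 0.69 over the 7 of the second, and 0.44 over the 8 wild-type arrays. It was 0.26 without the 2 arrays farthest from the median of Myc, with 35 of 41 genes above 0, and 0.22 after a further quantile normalization, with 28 above 0. Array spread also had a positive r with Myc (r = 0.43, rho = 0.38, permutation p 0.121 and 0.176, adjusted over 4 relations 0.243 and 0.352). In a limma slope on Myc with genotype in the model, 14 of 41 genes were called, all positive, where 33.7% of all genes were called and 18.8% were called positive. With the array spread added, 0 of 41 were called and 3 had an unadjusted p under 0.05, where 11.3% of all genes did. The median slope was then 0.05 per unit of Myc, against 0.59 without the array spread. All 8 megakaryocyte markers had a negative r with Myc, and their part in the relation was not tested.

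**Figure D5:**
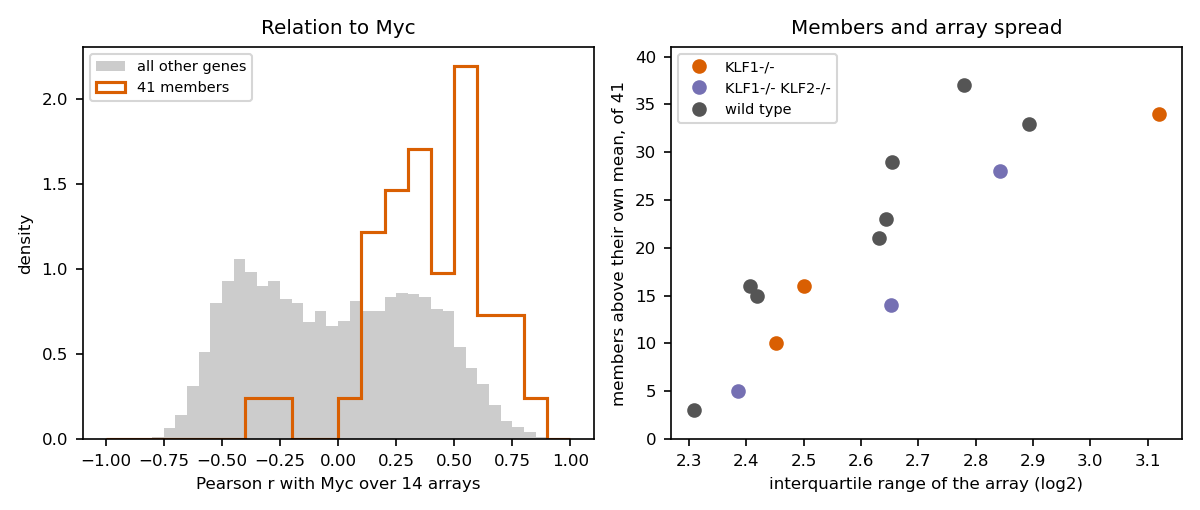
Left, the distribution of Pearson r with Myc over 14 arrays for the 41 genes (outline) and all other genes (grey); right, the number of the 41 genes above their own mean on each array against the array's interquartile range, coloured by genotype. The outline is shifted to positive values (median 0.39), and the counts run from 3 on the array of narrowest spread to 34 on the widest, with 37 on wild-type replicate 9.

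Genes of the same pathways outside the 44 names were read in the same way. Of 112 other ribosome biogenesis genes 97 were measured, and of 57 other nucleotide, folate and polyamine genes 42. None was called in any of the 3 comparisons, where 0.0403%, 0.0646% and 0.00807% of all genes were called. In KLF1-/- arrays 44 of 97 ribosome biogenesis genes were below wild type, with a median change of 0.02. In the arrays labelled KLF1-/- KLF2-/- 73 of 97 were below wild type, with a median of -0.13, but only 18 of 42 nucleotide and polyamine genes, with a median of 0.03. Of all genes, 47.9% were below wild type in each of these comparisons. Relative to KLF1-/- 84 of 97 were lower there, against 49.9% of all genes, with a median of -0.15. With Myc, 88 of 97 and 34 of 42 had a positive r, against 48.1% of all genes, with medians of 0.46 and 0.33. These lists were read on the same arrays, so they do not repeat the results above independently. For the measured genes among the 44 names, the median change between the mutants ran from -0.27 to 0.13 leaving out each array. The part of array spread and of single arrays in the counts of these lists was not tested.

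Among these other pathway genes was Mphosph10, a component of the small subunit processome. It had means of 8.60 in the arrays labelled KLF1-/- KLF2-/- and 9.02 in wild type, a change of -0.42 (SE 0.107, limma adjusted p = 0.539). Exosc2, of the RNA exosome, had a change of -0.28 (SE 0.105). Hprt, which salvages purines, had means of 11.2 in the arrays labelled KLF1-/- KLF2-/-, 9.95 in KLF1-/- and 10.2 in wild type. Its change was 1.02 (SE 0.260, adjusted p = 0.541) against wild type and 1.24 (SE 0.313, adjusted p = 0.9999) against KLF1-/-. Dck, which phosphorylates salvaged deoxynucleosides, had means of 10.4 in KLF1-/- and 11.2 in wild type, a change of -0.78 (SE 0.248, adjusted p = 0.9998). Taldo1, of the pentose phosphate pathway, had changes of 0.68 (SE 0.388) in KLF1-/- and 0.95 (SE 0.388) in the arrays labelled KLF1-/- KLF2-/-. Mdn1, a large subunit remodelling factor, had a change of -0.66 (SE 0.273) between the arrays labelled KLF1-/- KLF2-/- and KLF1-/-.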

How the data were processed

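Expression was measured on 14 Affymetrix mouse arrays, 1 per sample. The deposited table holds log2 values per probe set. Per the submitters' processing notes GCOS, RMA, affy and limma were used, and their versions and settings are not given in the sources used here. RMA normalization would remove a shift common to nearly every gene. Deposited values lay between 3.29 and 14.7, and array medians between 6.55 and 6.66. The number of arrays sets the precision, and limma p-values compare a difference with the spread between these samples. These are pools of yolk sacs, so the spread between single embryos was not measured.

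Of 22690 probe sets, 64 were controls; 20380 named a single gene, 691 named several genes and 1555 named no gene. Identifiers of 20351 were found in the RefSeq table of GRCm38.p6. Each gene took its brightest probe set. Of the 41 genes, 26 had several probe sets (39 others), and 4 (Odc1, Paics, Nme1 and Shmt2) were read by a probe set whose name, ending in x_at, marks possible cross-hybridisation. Another 6 (Fbl, Nop56, Nhp2, Wdr43, Cad and Shmt1) were read by a probe set ending in s_at, whose specificity was not checked.

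Groups came from the sample titles. One limma 3.58.1 model (R 4.3.3, two-sided) covered all genes with the genotype means as coefficients, with Benjamini-Hochberg adjustment over 12393 genes. Relations to Myc used 100000 permutations of the arrays, adjusted over the 12392 genes other than Myc (Python 3.11.15, scipy 1.17.1). On simulated data with 12393 genes, the fit called 70% and 74% of genes changed by -1 and 1 in the KLF1-/- comparison, and 74% of each in the KLF1-/- KLF2-/- comparison. There 50 genes were changed by each of -2, -1, 1 and 2, with noise drawn independently for each gene. The spread that genes share on the real arrays was not simulated. In the real fit Klf1, with changes of -1.22 and -1.52, was not called (limma adjusted p = 0.9998 and 0.317). The simulated shares therefore need not hold for these arrays. The genes and lists were chosen with earlier results of these data known. Genes were named by smallest p (up to 4 per direction and comparison), by highest and lowest r, and 2 per direction from each pathway list; genes named from other counts of 5 or fewer were picked after their values were seen. Alternatives covered the number run, normalization, array spread, a 3′ excess of Gapdh probes, probe set choice, a filter at 6, array weights and leaving out each array.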

Additional observations from a re-analysis of the deposited data

Results flagged for a closer look

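Prps2, an enzyme that makes phosphoribosyl pyrophosphate, stood apart in wild-type replicate 3, where it had 8.001 against 7.55 to 7.74 on the other wild-type arrays. The gap to the nearest array was 0.575 of the whole range, above Dixon's 95% critical value for 8 samples. It was 1 of 42 genes screened (the 41 genes and Myc). Chance flags about 1 in 20 groups, and 6.54% of all 12393 genes were flagged in the same way.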

How the results depend on the processing

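No paired analysis was possible because the groups share no replicate numbers. Of the counts of called genes under an alternative, 5 differed from the main count of 0. Medians moved by less than 0.26 (the wild-type SD of the genes' mean) or, for r, 0.21, except r within the second number run. That median r lay further than 0.21 above the main one. These limits are wider than most of the medians, so signs could turn within them. In KLF1-/- the median of 0.01 became -0.13 with array spread in the model and -0.22 without the arrays of widest and narrowest spread, and between the mutants -0.11 became 0.13 without those arrays. With array weights 4, 18 and 20 genes were called in KLF1-/-, in the arrays labelled KLF1-/- KLF2-/- and between them. That estimate stopped before converging and gave a weight of 58.7 to KLF1-/- KLF2-/- replicate 13, and gene-by-gene weights, added after seeing the data, called 1 (Nop56, in the arrays labelled KLF1-/- KLF2-/-). The share of all genes called under either set of weights is not given here. The counts with weights therefore cannot be compared with calls over the whole array, and nothing is concluded from them. The slope on Myc with genotype called 14. Leaving out each array in turn, no gene was called in limma or by permutation; the median change ran from -0.17 to 0.10 in KLF1-/-, from -0.24 to -0.03 in the arrays labelled KLF1-/- KLF2-/- and from -0.27 to 0.13 between them, and the median r from 0.29 to 0.53. For single named genes 752 values kept their side, 13 passed the threshold and 35 changed sign; the cause was not tested.

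Sign changes in KLF1-/- against wild type were Polr1a with the mean of all probe sets (-0.0078), Bop1 (-0.0215) and Ppat (-0.0025) with array weights and Paics (0.0966) likewise, Bop1 with gene-by-gene weights (-0.0281), and Bop1 (-0.0579) and Ppat (-0.12) without the arrays of widest and narrowest spread. Leaving out arrays, Paics ran from -0.35 to 0.0373, Npm1 from -0.45 to 0.0653 and Bop1 from -0.0267 to 0.44. In the arrays labelled KLF1-/- KLF2-/- against wild type, Bop1 was -0.0076 with array weights and ran from -0.0353 to 0.33 leaving out arrays, and Ppat from -0.0223 to 1.37. Against KLF1-/-, the number run as a block gave Mthfd2 -0.48 and Ppan -0.0391, array weights Paics -0.0163 and Ppan -0.0895, and gene-by-gene weights Ppan -0.0213.

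For Myc, r was -0.0984 for Ppan and -0.0014 for Nop2 without the 2 arrays farthest from its median, -0.118 and -0.210 after quantile normalization, and -0.0075 and -0.309 centred within genotype, where Mthfd2 had 0.340. The mean of all probe sets gave Ubtf 0.0342. Leaving out arrays, r ran from -0.0568 to 0.321 for Ppan and from -0.0768 to 0.254 for Nop2. The slope with genotype was -0.0032 for Ppan, -0.17 for Nop2 and 0.42 for Mthfd2, and with array spread too -0.0782 for Nop56, -0.20 for Ppan and 0.42 for Mthfd2.

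The number of arrays limits these results: a typical interval spans 0.48 on each side.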
